A study of Mus musculus with 6 samples.

Results

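Axon guidance ligands and receptors are the secreted and cell surface proteins that steer growing axons and migrating cells. The 64 genes described here were all gene rows whose symbol begins with Sema, Plxn, Epha, Ephb, Efna or Efnb, together with Nrp2, Slit1 to Slit3, Robo1 to Robo3, Ntn1, Ntn4, Dcc and Unc5a to Unc5d, provided that their level averaged 1 TPM or more across the 6 libraries. They came from 35857 gene rows in all, of which 14994 reached that mean. The symbol rule matched 66 rows, and the 2 that fell under the mean were Epha1 and Plxna4os1, an antisense transcript of Plxna4, at 0.09 and 0.097 TPM. The members just inside it were Epha2 at 1.32 TPM and Sema3d at 1.67 TPM. TPM is a transcript abundance per unit of gene length that is scaled to 1000000 in each library.

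Cortical tissue of C57BL/6 mice, taken at postnatal day 7, supplied the polyadenylated RNA. The Control group was 3 wild-type brains and the Qk_KO group was 3 brains with the genotype Qk-/-. No other allele or treatment is named in the labels, and the sources used here do not give the exons removed or the cells in which the deletion acted. Quaking, the product of Qk, is an RNA-binding protein of glia and neural progenitors.

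Qk was at 36.5, 43.2 and 41.3 TPM in control replicates 1 to 3 and at 14.6, 15.2 and 15.4 TPM in knockout replicates 1 to 3. It fell from 40.4 ± 3.48 to 15.1 ± 0.39 TPM (SD, n = 3; limma, adjusted p = 0.000855). Between 14897 and 15074 genes reached 1 TPM in a library. The 8 markers of cortical projection neurons, Slc17a7 and Tbr1 among them, summed to 880 to 955 TPM in control and 943 to 993 TPM in knockout and none passed the test. Of the genes of hindbrain and spinal cord, Hoxb2, Hoxb3 and Hoxa2 were listed at 0 in all 6 libraries.

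Semaphorins signal through plexins, and the secreted class 3 semaphorins do so with neuropilins as co-receptors. Ephrins are membrane-bound ligands: ephrin-As are held by a lipid anchor and bind mainly EphA receptor tyrosine kinases, and ephrin-Bs cross the membrane and bind mainly EphB receptors. Slits repel axons through Robo receptors. Netrin-1 attracts axons through Dcc and repels them through Unc5 receptors. In the cortex of the first postnatal week these systems act on callosal and subcortical axons, on dendrites, on late migrating neurons, on glia and on vessels.

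None of the 64 genes passed the test between knockout and control cortex in either direction (limma, adjusted p of 0.0733 to 0.998). Of all 14994 tested genes 58 passed, which was 0.387%, with 0.1% risen and 0.287% fallen, so a count of 0 among 64 is near the background. In bulk tissue, fewer cells of a type and less RNA per cell cannot be told apart. At an unadjusted p under 0.05 there were 5 members (7.81%), against 8.72% of all tested genes. The 3 control and 3 knockout values did not overlap for 9 members (14.1%), against 14.2% of all tested genes. The median log2 change, knockout minus control on the log2(TPM + 1) scale, was −0.05 over the members and −0.03 over all tested genes.

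The data also bounded the changes. For 58 of the 64 members the 95% interval of the change, not corrected for the number of genes, lay within 1.5-fold of TPM + 1 in both directions, as it did for 72.9% of all tested genes. For members of a few TPM, such as Sema3d, this allows a larger fold of TPM itself. The 6 members whose interval reached beyond 1.5-fold were Ntn4, Plxnb3, Sema3b, Sema3g, Epha2 and Sema4b, and 4 of these had a mean under 10 TPM. Reaching beyond that bound does not mean a wide interval. The standard errors of Ntn4 and Sema4b, 0.142 and 0.135, were smaller than that of Robo3, 0.221, whose interval lay within it. Among the abundant members whose interval excluded changes of that size were Plxna1, Epha4, Robo2 and Sema4g. The log2 change was below 0 for 46 members (71.9%) and for 57% of all tested genes. After median-of-ratios scaling, which moved the median change of all genes by 0.027, these shares were 60.9% and 49.9%.

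**Figure D1:**
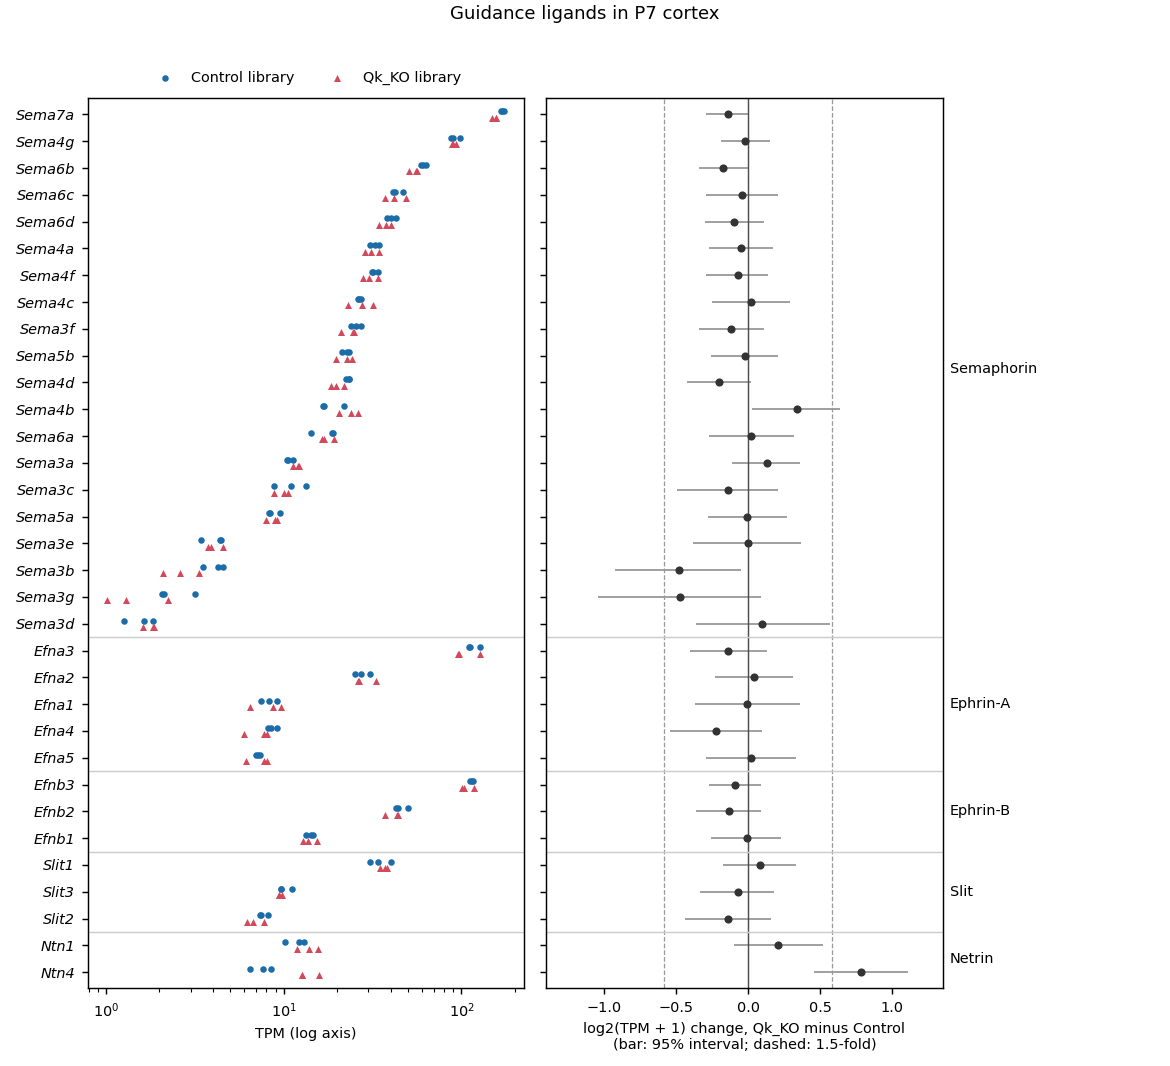
Guidance ligands by family. Left, TPM of each of the 3 Control and 3 Qk_KO libraries on a log axis; right, the log2(TPM + 1) change with its 95% interval, dashed lines at 1.5-fold of TPM + 1. Ntn4 stands to the right at 0.78 with an interval of 0.46 to 1.11, and most other intervals cross 0.

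**Figure D2:**
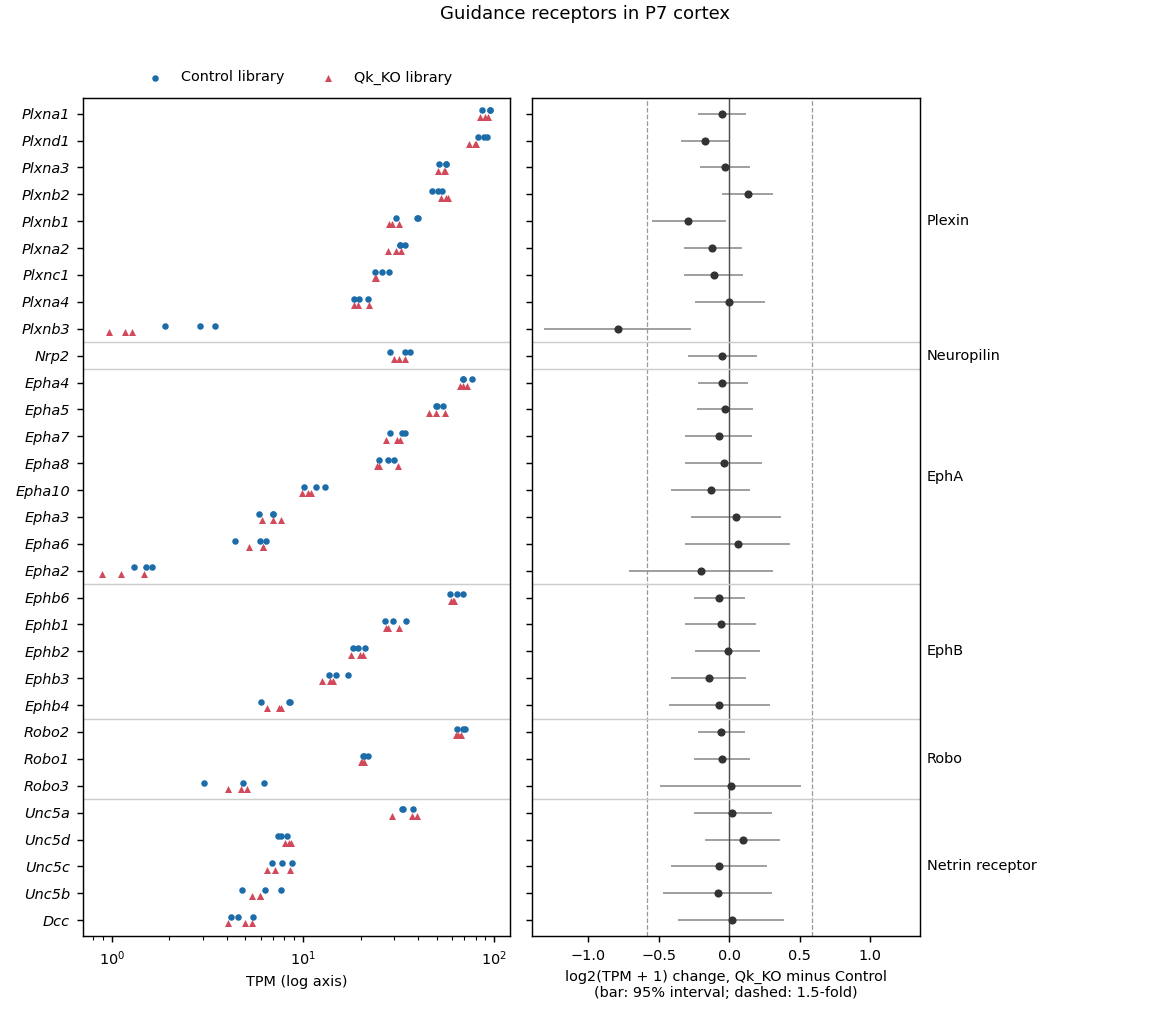
Guidance receptors by family, drawn as for the ligands. Plxnb3, the receptor of lowest TPM among the plexins, stands to the left at −0.79 with an interval of −1.31 to −0.27.

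Quaking binds RNA that holds ACTAAC or ACTAAT (U in place of T in the RNA) with a nearby TAAC or TAAT, so the annotated 3′ UTRs of the members were searched for these letters on the transcribed strand. One 3′ UTR was taken per gene, the longest in the GENCODE M21 annotation of GRCm38. All 64 members had one, with a median length of 1617 bases, and so did 13780 of the tested genes, with a median of 1197 bases. ACTAAC or ACTAAT was present in 24 members (37.5%) and in 34.5% of all tested genes. The pair, with at most 20 bases between its parts, was present in 4 members (6.2%) and in 8.7% of all tested genes. Over the first 1000 bases of the UTRs that were that long, the shares were 27.3% of 44 members and 26.7% of 7728 genes for the first part, and 4.5% and 5.0% for the pair. The shares of the members were near those of all tested genes. The 7 pairs lay in Epha5, Sema3d, Sema5a and Slit2, and are shown because they are the sequences in this gene set that match the full element. Capitals mark the 2 parts of each.
Slit2, chr5:48304300-48304319, plus strand: ACTAATtcatgcttcaTAAT
Epha5, chr5:84058113-84058139, minus strand: ACTAATtagtttatttaaacagcTAAT
Epha5, chr5:84055938-84055954, minus strand: ACTAACcactataTAAT
Sema5a, chr15:32692670-32692682, plus strand: ACTAACaggTAAT
Sema3d, chr5:12587155-12587178, plus strand: ACTAATcatagatcacacaaTAAT
Sema3d, chr5:12588304-12588314, plus strand: ACTAACaTAAC
Sema3d, chr5:12588513-12588542, plus strand: ACTAACaagccattttgagggatgggTAAC
None of the 4 genes whose longest annotated 3′ UTR holds these pairs separated the groups. The values are per gene, so the level of the transcripts with these UTRs is not known. Slit2 was at 8.18, 7.35 and 7.45 TPM in control and at 7.73, 6.20 and 6.70 TPM in knockout replicates 1 to 3. Sema5a was at 8.72 ± 0.66 and 8.67 ± 0.629 TPM, and the log2 change of Epha5 was −0.03 with an interval of −0.23 to 0.17. Sema3d, the lowest semaphorin, had a wider interval of −0.36 to 0.57. The median log2 change was −0.02 over the 4 members with a pair and −0.05 over the 60 without one. A match of letters does not show binding, and introns and coding exons were not searched.

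Netrins were the family with the largest difference, and it lay mostly in Ntn4. Netrin-4 is a laminin-binding netrin of basement membranes. Ntn4 was at 6.46, 7.62 and 8.49 TPM in control replicates 1 to 3 and at 15.8, 12.6 and 12.6 TPM in knockout replicates 1 to 3. Every knockout library lay above every control library. The means were 7.52 ± 1.02 and 13.7 ± 1.88 TPM (SD, n = 3), a ratio of 1.82, with a log2 change of 0.78, a standard error of 0.142 and an adjusted p of 0.0733 (limma). The change was not past the threshold, and it was not past it in any of 13 other settings of the analysis, with adjusted p of 0.0546 to 0.257 and log2 changes of 0.68 to 0.86. Ntn4 (Entrez 57764) lies on the plus strand of chromosome 10, from 93640681 to 93747207 in GRCm38. Gene models on the opposite strand overlap it, and whether reads were counted by strand is not given in the sources used here. Beside it, 6 endothelial markers summed to 367 to 497 TPM in control and 355 to 425 TPM in knockout, with overlap. The 6 markers of pericytes and smooth muscle summed to 93.1 to 102 and 79.1 to 91.7 TPM, lower in every knockout library. None of these markers passed the test and none was at 0, and the part of vessel cells in the values of Ntn4 was not tested.

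Netrin-1, the classical attractant, differed less. Ntn1 was at 10.2, 12.2 and 13 TPM in control and at 13.9, 15.7 and 11.9 TPM in knockout, and the groups overlapped (log2 change 0.21, interval −0.10 to 0.52). The 2 netrins summed to 16.7, 19.8 and 21.5 TPM in the control libraries and to 29.8, 28.2 and 24.5 TPM in the knockout libraries. Netrin, of which the symbol rule took Ntn1 and Ntn4 only, was the one family of several members whose sums did not overlap between the groups. Ntn1 supplied 61.1% of that sum in control and 50.3% in knockout.

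None of the 5 netrin receptors among the members, Dcc and Unc5a to Unc5d, separated the groups. Unc5a, a repulsive netrin receptor and the most abundant of the 5, was at 33.3, 32.9 and 37.7 TPM in control and at 37.0, 39.7 and 29.4 TPM in knockout. Dcc, the attractive receptor, was at 4.75 ± 0.666 and 4.81 ± 0.684 TPM, and its interval ran from −0.36 to 0.39. Unc5d, a receptor of migrating upper-layer neurons, was at 7.76 ± 0.421 and 8.38 ± 0.325 TPM. Unc5b and Unc5c, at 6.04 and 7.60 TPM over all libraries, had log2 changes of −0.08 and −0.07. All 5 overlapped between the groups, and their summed TPM was 61.2 ± 4.55 in control and 61.8 ± 5.66 in knockout cortex.

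Semaphorins made up the largest family, with 20 members and a summed level of 647 ± 19.8 TPM in control cortex, against 615 ± 18.2 TPM in the knockout. Sema7a, a lipid-anchored semaphorin that promotes axon growth, was the most abundant of all 64 genes and took 26.3% of the family's TPM in control and 25.0% in knockout. It was at 166, 169 and 174 TPM in control and at 157, 156 and 148 TPM in knockout, with no overlap and a ratio of 0.905. The log2 change of −0.14 did not pass (adjusted p = 0.587).

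Among the secreted class 3 semaphorins, Sema3b and Sema3g had the largest differences. Sema3b was at 3.5, 4.30 and 4.55 TPM in control and at 2.09, 3.36 and 2.61 TPM in knockout (log2 change −0.48, adjusted p = 0.519). Sema3b (Entrez 20347) spans 107597674 to 107609229 of chromosome 9 in GRCm38, minus strand. Sema3g, at 3.18, 2.07 and 2.12 TPM against 2.23, 1.3 and 1.02 TPM, overlapped between the groups (log2 change −0.47, adjusted p = 0.651). Sema3a, a repellent of cortical axons and an attractant of apical dendrites, was higher in each knockout library, at 12.2, 12 and 11.3 TPM against 11.3, 10.4 and 10.6 TPM. Its groups were separated by less than the last digit given, and its log2 change was 0.13 with an interval of −0.11 to 0.36. Sema3f, the most abundant of the class, was at 25.5 ± 1.55 and 23.5 ± 2.10 TPM. Sema3c was at 11 ± 2.23 and 9.82 ± 0.88 TPM and Sema3e at 4.09 ± 0.589 and 4.07 ± 0.448 TPM. The 7 genes of the class summed to 59.6 ± 2.70 TPM in control and 55.2 ± 2.97 TPM in knockout, so secreted semaphorins were the minor part of the family's transcripts.

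Class 4 semaphorins, which cross the membrane, held the largest share. Sema4g led them at 91.5 ± 5.54 and 90.2 ± 2.28 TPM, with an interval of −0.19 to 0.15. Sema4b went the other way from most of the family, at 16.6, 16.9 and 21.8 TPM in control and at 20.4, 26.1 and 24.0 TPM in knockout. Knockout replicate 1 lay below control replicate 3, and the log2 change of 0.34 did not pass (adjusted p = 0.519). Sema4d, the ligand of plexin-B1, was at 23.4, 22.4 and 23.3 TPM in control and at 21.9, 18.4 and 19.7 TPM in knockout, without overlap (log2 change −0.20, adjusted p = 0.614). Sema4a, Sema4c and Sema4f, at 31.9, 27.1 and 31.6 TPM over all libraries, had log2 changes of −0.05, 0.02 and −0.07.

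Of the remaining semaphorins, Sema6b alone separated the groups. Sema6b, a transmembrane ligand of A-type plexins, was at 59.0, 60.7 and 63.2 TPM in control and at 55.6, 56.2 and 50.9 TPM in knockout (log2 change −0.17, adjusted p = 0.59). Sema6c was at 43.5 ± 3.02 and 42.5 ± 5.84 TPM, Sema6d at 40.2 ± 2.35 and 37.6 ± 2.98 TPM, and Sema6a at 17.3 ± 2.63 and 17.5 ± 1.4 TPM. Sema5b, whose class carries thrombospondin repeats, was at 22.4 ± 1.08 and 22.1 ± 2.31 TPM. Of the 20 semaphorins, 5 did not overlap between the groups, Sema3b, Sema4d, Sema6b and Sema7a lower and Sema3a higher in the knockout, in a data set where 14.2% of all tested genes did not overlap.

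Among the plexins, the B-type receptors differed most from each other. Plxnb3 was at 1.90, 2.90 and 3.47 TPM in control and at 1.28, 0.97 and 1.17 TPM in knockout. Its highest knockout library lay below its lowest control library, and the means were 2.76 ± 0.795 and 1.14 ± 0.157 TPM, a ratio of 0.414. The log2 change of −0.79 had a standard error of 0.229 and did not pass (adjusted p = 0.32), nor did it in the 12 other settings that kept the gene (adjusted p of 0.209 to 0.643). Plexin-B3 is a receptor of Sema5A known from oligodendrocytes. Plxnb3 (Entrez 140571) lies on the plus strand of the X chromosome, from 73757090 to 73772514. The summed markers of oligodendrocytes were also lower in every knockout library. Of 6 such markers 5 were tested and none was at 0. Mbp and Cnp fell, and the other tested markers did not pass. The 6 summed to 223 to 232 TPM in control and 133 to 148 TPM in knockout. Their part in the values of Plxnb3 was not tested.

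The other two B-type plexins were more abundant. Plxnb1 was at 39.6, 30.7 and 39.9 TPM in control and at 31.9, 29.3 and 28.1 TPM in knockout (log2 change −0.29, adjusted p = 0.535), and control replicate 2 lay within the knockout range. Plxnb2, a plexin of neural progenitors, was at 50.5 ± 2.95 and 55.4 ± 2.29 TPM, with a log2 change of 0.13. These receptors thus had changes of both signs, none past the threshold, and the differences between them were not tested.

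A-type plexins, the signalling partners of neuropilins and class 6 semaphorins, showed narrow intervals. Plxna1, the most abundant receptor among the members, was at 95.6, 86.8 and 94.8 TPM in control and at 89.6, 92.7 and 84.6 TPM in knockout. Its interval ran from −0.22 to 0.12. Plxna2 was at 32.9 ± 0.996 and 30.3 ± 2.50 TPM, Plxna3 at 54.7 ± 2.60 and 53.5 ± 2.37 TPM and Plxna4 at 20 ± 1.72 and 20 ± 1.87 TPM. Plxnd1, a plexin of vessels and some neurons that binds Sema3E, was at 91.8, 82.8 and 88.7 TPM in control and at 79.3, 80.7 and 74.1 TPM in knockout, without overlap (log2 change −0.17, adjusted p = 0.58). Plxnc1, the receptor of Sema7A, was at 26.0 ± 2.15 and 23.9 ± 0.0855 TPM. Nrp2, a co-receptor of class 3 semaphorins, was at 34.3, 28.6 and 36.5 TPM in control and at 31.7, 34.3 and 30.0 TPM in knockout, and its interval ran from −0.29 to 0.20.

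**Figure D3:**
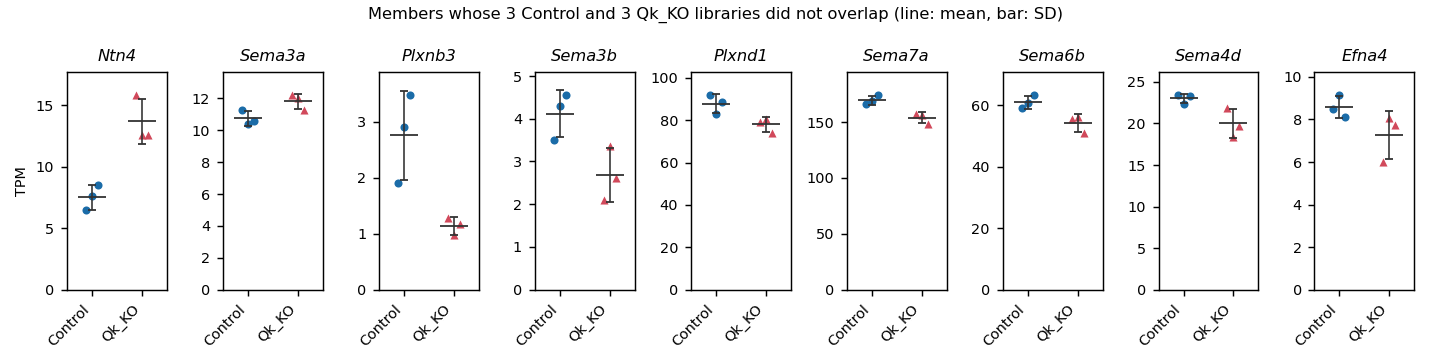
TPM of the 9 members whose groups did not overlap, each on its own axis from 0; circles are Control and triangles Qk_KO libraries, the line is the mean and the bar the SD of 3 libraries. Ntn4 and Sema3a were higher and the other 7 lower in Qk_KO, and none passed the test over all genes.

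The 9 members whose groups did not overlap are given because of that separation and were chosen after their values were seen. Of the 64 members, 7 were without overlap and lower in the knockout, and 2 were without overlap and higher. Of all 14994 tested genes, 1347 (8.98%) were without overlap and lower, and 779 (5.2%) without overlap and higher. Among the 9 members the sizes differed widely, from a ratio of 1.82 for Ntn4 and 0.414 for Plxnb3 to 0.905 for Sema7a. Quaking's first element, ACTAAC or ACTAAT, was found in the 3′ UTRs of Sema3a and Sema7a and not in those of the other 7. It was present in 37.5% of all members and in 34.5% of the tested genes with a 3′ UTR. These shares were not matched for length. The UTRs of Sema3a and Sema7a were 2962 and 1264 bases long. Those of the other 7 ran from 264 bases in Plxnb3 to 1363 in Sema4d, against a median of 1617 over the members.

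Among ephrins and their receptors, Efna4 alone separated the groups. Efna3, a lipid-anchored ligand of EphA receptors, was at 127, 110 and 112 TPM in control and at 96.6, 127 and 95.9 TPM in knockout and made up 69.2% and 67.2% of the ephrin-A transcripts. Its interval ran from −0.40 to 0.13. Efna4 was at 8.47, 9.14 and 8.13 TPM against 5.98, 8.09 and 7.73 TPM (log2 change −0.22, adjusted p = 0.727). Efna2 was at 27.6 ± 2.77 and 28.5 ± 3.92 TPM. Efna1 and Efna5, at 8.28 and 7.24 TPM over all libraries, had log2 changes of −0.01 and 0.02.

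The transmembrane ephrin-Bs were led by Efnb3, a midline and myelin-associated repellent. It was at 111, 115 and 116 TPM in control and at 103, 118 and 101 TPM in knockout. Efnb2, also a ligand of arterial endothelium, was at 45.5 ± 3.73 and 41.4 ± 3.81 TPM, and Efnb1 at 14.1 ± 0.662 and 14 ± 1.18 TPM. The levels of all 3 overlapped between the groups.

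Of the 8 EphA receptors, Epha4 was the most abundant. This receptor, which binds ephrins of both classes and takes part in corticospinal guidance, was at 68.8, 69.0 and 76.6 TPM in control and at 68.9, 66.6 and 71.9 TPM in knockout (interval −0.22 to 0.13). It held 34.4% of the family's TPM in either group. Epha5 followed at 51.2 ± 2.23 and 50.2 ± 4.64 TPM, Epha7 at 31.9 ± 3.06 and 30.2 ± 2.64 TPM and Epha8 at 27.7 ± 2.53 and 27.1 ± 3.87 TPM. Epha10, which lacks kinase activity, Epha3 and Epha6 had means of 11.1, 6.76 and 5.73 TPM over all libraries and log2 changes of −0.13, 0.05 and 0.06. No EphA receptor separated the groups, and the family spanned 1.32 to 70.3 TPM.

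The 5 EphB receptors all had log2 changes below 0, from −0.14 to −0.01, and all overlapped between the groups. Ephb6, a receptor without kinase activity, led them at 68.9, 63.7 and 58.9 TPM in control and at 61.5, 60.6 and 59.3 TPM in knockout. Ephb1, which takes part in callosal and retinal guidance, was at 30.3 ± 3.77 and 29.0 ± 2.4 TPM and Ephb2 at 19.5 ± 1.37 and 19.4 ± 1.48 TPM. Ephb3 was at 15.2 ± 1.83 and 13.6 ± 0.888 TPM and Ephb4, an endothelial receptor of veins, at 7.68 ± 1.43 and 7.22 ± 0.661 TPM. A log2 change below 0 was also the more frequent sign among all tested genes, at 57% in the values as deposited. After median-of-ratios scaling that share was 49.9%.

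No Slit and no Robo separated the groups. Slit1, the main Slit of the cortex here with 66.0% of the family's TPM in control and 69.0% in knockout, was at 33.8, 30.5 and 40.3 TPM in control and at 38.3, 34.7 and 37.0 TPM in knockout. Slit3 was at 10.1 ± 0.884 and 9.56 ± 0.20 TPM. Robo2 was at 63.7, 68.8 and 70.6 TPM in control and at 63.5, 66.9 and 64.7 TPM in knockout, and Robo1 at 21.2 ± 0.711 and 20.4 ± 0.484 TPM. Robo3, a Robo known from axons that cross the midline, varied widely among the control libraries, at 6.27, 3.05 and 4.84 TPM, against 5.08, 4.05 and 4.72 TPM in knockout. The intervals of Robo1 and Robo2, at −0.25 to 0.15 and −0.22 to 0.11, were narrower than that of Robo3, at −0.49 to 0.51.

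**Figure D4:**
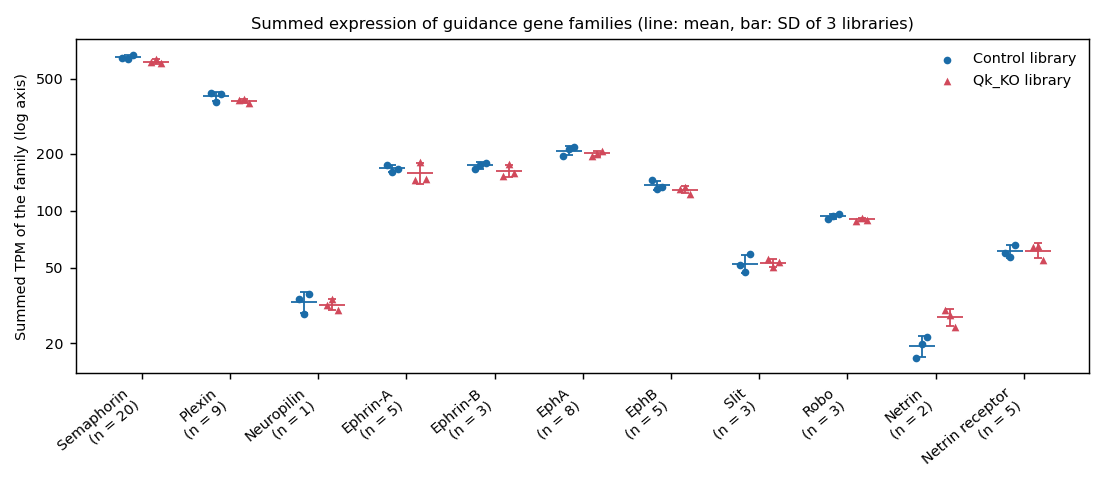
Summed TPM of each family in each library on a log axis; circles are Control and triangles Qk_KO libraries, the line is the mean and the bar the SD of 3 libraries, and n is the number of members. Netrins stand apart, from 16.7 to 21.5 in Control and from 24.5 to 29.8 in Qk_KO, and the other 10 families overlap.

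Summed over all families, ligands and receptors were at similar levels in the groups. The 33 ligand genes summed to 1061 ± 32.9 TPM in control and 1016 ± 47.3 TPM in knockout, and the 31 receptor genes to 936 ± 33.0 and 896 ± 18.3 TPM. Ratios of the family sums, knockout over control, ran from 0.937 for ephrin-Bs to 1.01 for Slits and netrin receptors, with netrins at 1.42. By group means the leading member was the same in both groups in every family. In the knockout the netrin lead was slight, with Ntn1 at 13.8 ± 1.89 and Ntn4 at 13.7 ± 1.88 TPM. Ntn4 was the higher of the pair in knockout replicates 1 and 3. The leading member's share of its family differed by more than 5 percentage points in netrins alone. The family sums were not tested.

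Some glial marker transcripts differed between the groups beyond those of oligodendrocytes. Of 8 astrocyte markers 3 fell (Slc1a3, Gja1 and S100b), with sums of 835 to 887 TPM in control and 621 to 673 TPM in knockout. Of 6 precursor markers Olig2 rose and Gpr17 fell, with sums of 288 to 330 and 337 to 368 TPM. No marker of the astrocyte and precursor lists was at 0. The part of these cells in the members' values was not tested. No marker passed the threshold in the lists of neurons (5841 to 6630 TPM in control and 6165 to 6703 TPM in knockout), striatum (213 to 272 and 233 to 243), thalamus (135 to 164 and 142 to 157), meningeal fibroblasts (197 to 231 and 173 to 205), microglia (114 to 126 and 117 to 124) and hippocampus (70.5 to 85.6 and 69.4 to 70.6). Of 6 markers of hindbrain and spinal cord 1 reached the minimum for testing and did not pass, and the 6 summed to 1.90 to 2.83 TPM in control and 2.84 to 4.51 TPM in knockout, higher in every knockout library. Choroid plexus (755 to 1543 and 675 to 1029 TPM) and blood genes (6965 to 12557 and 4145 to 10817 TPM) varied widely within both groups, with none past the threshold.

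Partners of these pathways were read from lists of further ligands, receptors and signalling genes. Of 81 partner genes in 6 lists 80 were tested, all but Ntn5, and 0 rose and 0 fell. Of all tested genes 0.1% rose and 0.287% fell, so a count of 0 among 80 is near the background. The median log2 change was −0.05 over the tested partners and −0.03 over all tested genes. At an unadjusted p under 0.05, which 8.72% of all tested genes reached, there were 3, Rnd2, Fyn and Gas1, which are named for that reason after their values were seen. Rnd2, a small GTPase of migrating cortical neurons, was at 316, 236 and 242 TPM in control and at 200, 195 and 212 TPM in knockout (log2 change −0.37, adjusted p = 0.329). Fyn, a kinase downstream of semaphorins, netrin-1 and ephrins, was at 148, 149 and 148 TPM in control and at 132, 133 and 133 TPM in knockout (log2 change −0.16, adjusted p = 0.491). Gas1, a co-receptor of Sonic hedgehog, was at 11.1, 11.4 and 12.7 TPM in control and at 14.4, 18.3 and 15.6 TPM in knockout (log2 change 0.42, adjusted p = 0.314). All 3 were without overlap, as were 16.2% of the tested partners and 14.2% of all tested genes.

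By list, 23 genes of semaphorin signalling had a median log2 change of −0.07, 15 Slit-Robo partners −0.03, 14 genes of Eph and ephrin signalling −0.04, 12 of the actin and cofilin module −0.07, 9 further netrin, RGM and draxin genes −0.02 and 7 morphogen receptors of guidance 0.01. The most abundant partner of each list followed, with Gpc1 and Cfl1 without overlap and none past the threshold. Crmp1, a collapsin response mediator protein in the Sema3A pathway, was at 1708 ± 29.3 and 1693 ± 74.5 TPM. Cfl1, the actin-severing protein cofilin-1, was at 1280 ± 30.6 and 1158 ± 99.4 TPM. Rgma, a repulsive ligand of neogenin, was at 106 ± 12.4 and 109 ± 7.16 TPM, and Gpc1, a Slit-binding glypican, at 107 ± 6.65 and 94.0 ± 8.24 TPM. Ngef, the ephexin-1 gene of EphA4 signalling, was at 145 ± 7.39 and 136 ± 7.43 TPM and Celsr3, an atypical cadherin needed for cortical tracts, at 32.5 ± 0.763 and 32.6 ± 3.03 TPM (all SD, n = 3).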

How the data were processed

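Per the labels, RNA of the cortex was selected for poly(A) and sequenced on the Ion Proton from 3 control and 3 knockout brains. Per the submitters' processing notes, the tools were STAR 2.4.1d with RSEM 1.3.0, and the builds named are GRCm38.p4 and mm10. The sources used here do not give the annotation or the strand setting. The authors deposited 1 TPM value per gene and library, used here without further scaling. TPM keeps no depth, so the reads behind a value are unknown and no counting interval was computed. The 14994 genes that averaged 1 TPM or more were fitted on log2(TPM + 1) with limma 3.58.1 in R 4.3.3 (lmFit, eBayes with trend, group only). Adjustment was by Benjamini-Hochberg over all of these genes (2-sided tests, threshold 0.05). The fit was tested on simulated data. The p-values and intervals rest on each gene's spread between 3 brains a group, drawn by the fit toward a trend over all 14994 genes. They thus rest in part on the spread of other genes. Groups and replicate numbers came from the titles. The members, gene lists and rules were chosen with earlier results of these data known. All 64 members are named, since every member is accounted for; the rule fixed for named genes took Qk, members past the threshold, members with an unadjusted p under 0.05 and no overlap, the 2 most abundant of each of 11 families, and those next to the minimum of 1 TPM. Partner genes were to be named where they passed or led their list, and none passed; 3 more were named after their values were seen. Coordinates and 3′ UTRs came from GENCODE M21 (GRCm38), matched by Entrez number or symbol. Alternatives were pseudocounts of 0.1 and 0.5 TPM, no filter, a minimum of 5 TPM, median-of-ratios scaling, no trend, a replicate block and each library left out. One marker of the list of cortical projection neurons is not reported here and was left out of its sum.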

Additional observations from a re-analysis of the deposited data

How the results depend on the processing

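No member of the 64 and no partner gene passed the threshold in any of the 13 other settings. The number of all genes past it, 58, was 74 with a minimum mean of 5 TPM, 37 with no filter, 28 without the trend, and 20 to 53 when 1 library was left out, where fewer samples enter the fit; it was lowest without control replicate 2. With the replicate block it was 38, of which 35 were among the 58. Same-numbered libraries deviated together only weakly, with correlations of 0.035, 0.0311 and 0.0134, though each library correlated best with its own number, so the numbers were not taken to pair the samples. The median log2 change of the members, −0.05, was −0.02 after median-of-ratios scaling and −0.08 to −0.02 when 1 library was left out. The sign changed in at least 1 setting for 29 members, none with a log2 change over 0.08 in size. After median-of-ratios scaling Celsr3 was at 0.03, Crmp1 at 0.01 and Sema4g at 0.008. With 1 library left out, the log2 change of named genes near 0 ranged from −0.06 to 0.07 for Celsr3, −0.05 to 0.008 for Crmp1, −0.06 to 0.03 for Sema4g, −0.07 to 0.11 for Efna2, −0.14 to 0.03 for Ephb1, −0.06 to 0.15 for Unc5a, −0.10 to 0.03 for Epha5, −0.03 to 0.13 for Rgma, −0.01 to 0.19 for Slit1, −0.07 to 0.005 for Epha4 and −0.15 to 0.03 for Nrp2; the cause was not tested. The minimum of 5 TPM left Plxnb3 out of the fit. TPM gives no depth, so reads did not enter the limits of low members such as Epha2, Sema3d and Plxnb3. These limits rest on the spread of 3 libraries a group, drawn toward the trend over all tested genes.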
